A study of Mus musculus with 2 samples.

Results

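The autophagy and lysosome genes are a list of 38 mouse genes that cover the path from autophagosome formation to degradation in the lysosome. They were taken by symbol from the transcript models of both libraries, and the reads of a gene are the sum over all its models. All 38 had reads in both libraries, among 15410 annotated genes with at least 1 read. The data are long-read RNA sequencing of whole heart of adult B6CASTF1/J males aged 18 to 20 months, hybrids of a laboratory and a wild-derived strain. The only group holds 2 libraries, replicate 2 and replicate 1, made from 2 µg of RNA each and given as separate biological replicates with the same donor identifier. No treatment or mutant is part of the design, so the questions are which of these genes the heart libraries hold, in which isoforms, and how far the libraries differ. The labels do not say that the libraries come from separate animals, so the spread between them may be technical.

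Autophagy encloses cytoplasmic cargo in a double membrane and delivers it to the lysosome. The ULK1 complex and the Beclin 1 complex start the membrane, 2 linked conjugation systems attach ATG8 proteins to its lipid, and cargo receptors such as p62 bind ATG8 proteins on the inner face. After fusion, cathepsins, glycosidases and lipid-handling proteins break the cargo down behind a membrane lined with LAMP proteins. Heart muscle cells are long-lived and depend on this turnover: in humans, loss of LAMP2 causes Danon disease and loss of acid alpha-glucosidase (GAA) causes Pompe disease, both with cardiomyopathy.

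Sequences that set apart the isoforms and family members described here are given first, from the GENCODE M21 transcripts (GRCm38, mm10). Lamp2 has 3 alternative last exons on chromosome X, minus strand, and each encodes its own membrane span and cytosolic tail. Their coding parts, up to the stop codon, are shown because the reads were divided by them, and the capitals mark the 4 codons before the stop codon, the tyrosine-based sorting signal of the tail.
Lamp2-202 (LAMP-2B, chrX:38421712-38421851): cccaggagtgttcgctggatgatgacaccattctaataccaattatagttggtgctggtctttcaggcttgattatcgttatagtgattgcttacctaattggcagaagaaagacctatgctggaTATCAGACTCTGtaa
Lamp2-201 (LAMP-2A, chrX:38405432-38405571): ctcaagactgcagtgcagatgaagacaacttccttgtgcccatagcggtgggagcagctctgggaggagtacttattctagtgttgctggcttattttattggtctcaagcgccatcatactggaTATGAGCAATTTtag
Lamp2-203 (LAMP-2C, chrX:38402139-38402281): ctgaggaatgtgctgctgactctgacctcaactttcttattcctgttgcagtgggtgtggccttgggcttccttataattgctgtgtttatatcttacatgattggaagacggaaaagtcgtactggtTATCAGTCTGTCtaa
The 3 stretches are 60.1% identical between Lamp2-201 and Lamp2-202, 59.6% between Lamp2-201 and Lamp2-203 and 64.9% between Lamp2-202 and Lamp2-203.

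The 5 ATG8 genes end their coding sequence with a glycine codon (capitals) that is exposed when ATG4 proteases trim the protein and that is then joined to phosphatidylethanolamine. The last 45 coding bases before the stop codon are shown because the codons around the glycine differ between the members.
Map1lc3a-201: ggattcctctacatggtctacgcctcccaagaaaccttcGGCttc
Map1lc3b-201: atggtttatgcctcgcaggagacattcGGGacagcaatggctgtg
Gabarap-201: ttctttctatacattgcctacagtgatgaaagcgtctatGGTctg
Gabarapl1-201: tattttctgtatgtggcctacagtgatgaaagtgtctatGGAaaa
Gabarapl2-201: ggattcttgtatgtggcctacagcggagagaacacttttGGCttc
Map1lc3b has 5 codons after the glycine and the other members have 1. Over the whole coding sequence the 10 pairs of members were 53.1% to 75.1% identical.

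The libraries held 1003999 mouse reads in replicate 2 and 688861 in replicate 1, after synthetic spike-ins were left out. Levels are counts per 1000000 mouse reads (CPM), and since a long read stands for 1 cDNA molecule they were not divided by transcript length. The depth allows a level of up to 2.99 CPM in replicate 2 and 4.36 CPM in replicate 1 for a count of 0. Heart muscle markers were abundant: 8 cardiomyocyte genes summed to 41490 CPM in replicate 2 and 39456 CPM in replicate 1. Of the lists for other cells, 5 erythroid genes, mainly globins, were the most abundant with 6996 and 7684 CPM in replicates 2 and 1. The other lists were far lower in replicates 2 and 1, with 444 and 324 CPM for 8 endothelial genes, 367 and 344 CPM for 6 mural genes, 5.98 and 5.81 CPM for 5 lymphocyte genes (Cd3e at 0 in both), 318 and 348 CPM for 12 macrophage and monocyte genes (Fcgr1 at 0 in both), 600 and 774 CPM for 7 fibroblast genes, and 8.96 and 52.3 CPM for 4 adipocyte genes (Lep at 0 in both). In bulk tissue, fewer cells of a type and less RNA per cell cannot be told apart.

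The 38 members took 8430 reads in replicate 2 and 6230 reads in replicate 1, or 0.840% and 0.904% of the mouse reads of those libraries. Their summed level was 8720 ± 458 CPM (SD, n = 2). The median member stood at 87.0 CPM, against 25.6 CPM for the 8836 annotated genes tested, which are those whose reads in the libraries summed to 10 or more. The proteases formed the largest role group with 3767 ± 468 CPM (7 genes), followed by the ATG8 family with 2201 ± 269 CPM (5 genes) and the lysosomal membrane proteins with 1113 ± 142 CPM (6 genes). The genes that start the autophagosome summed to 267 ± 1.85 CPM (6 genes) and the conjugation enzymes to 144 ± 26.9 CPM (4 genes). Proteases and ATG8 genes thus held most of the member reads, and the initiation and conjugation genes on the list held few. The ATG8 sum includes Gabarapl1 reads on a model of 1 exon, 1011 of 1064 in replicate 2 and 505 of 535 in replicate 1. Initiation and conjugation genes outside the list are given below.

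**Figure D1:**
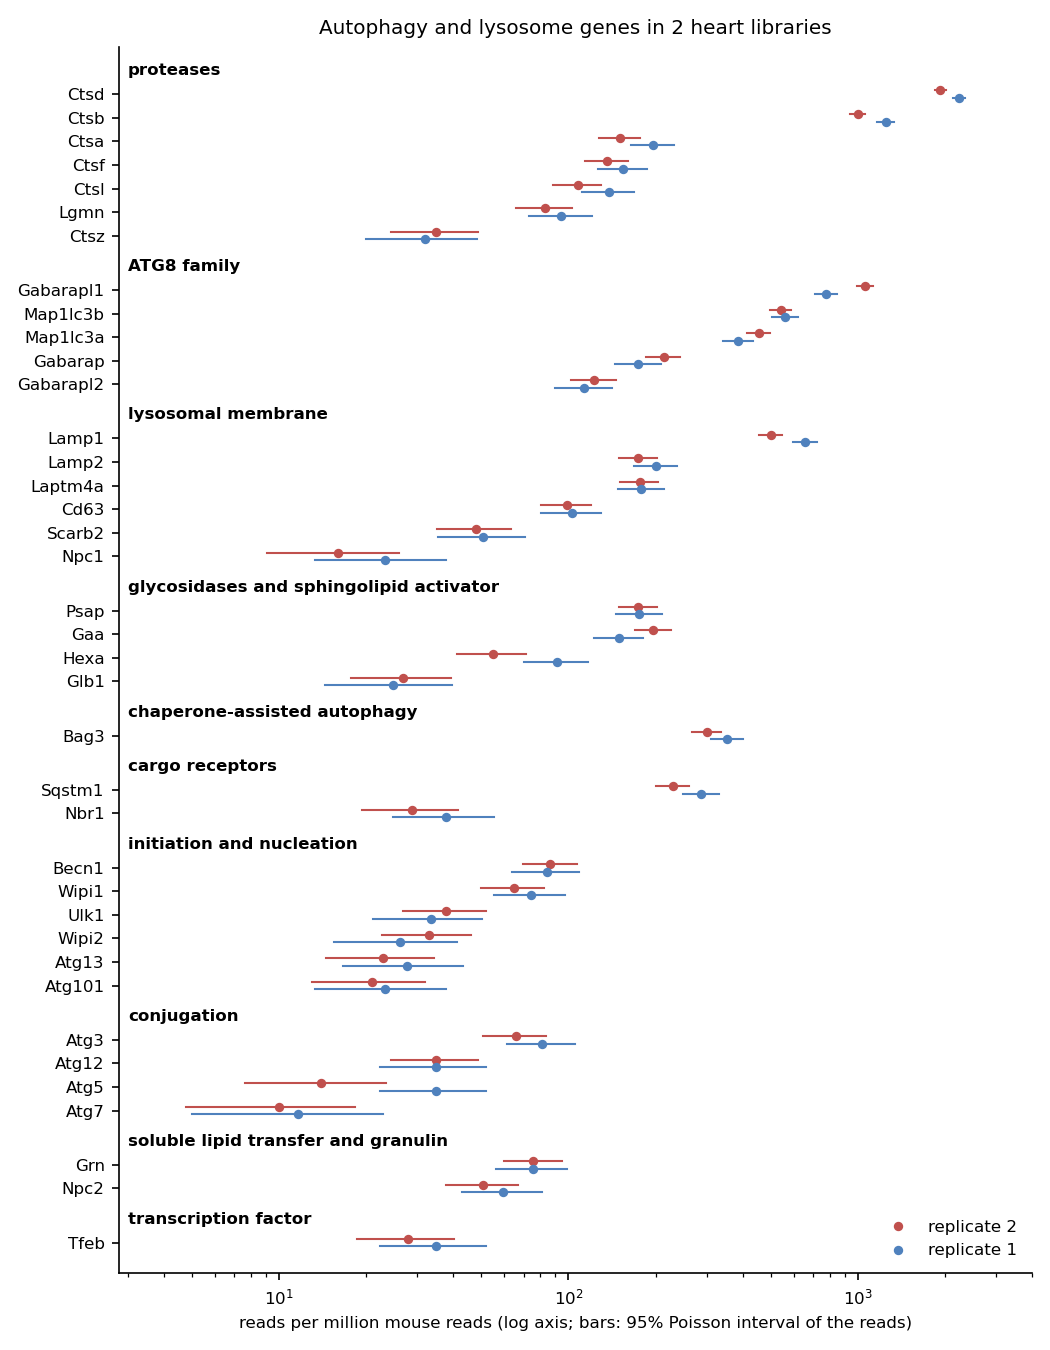
Level of each of the 38 members in replicate 2 (red) and replicate 1 (blue), in CPM on a log axis, grouped by role; bars are 95% Poisson intervals of the reads and cover counting error only. Ctsd and Ctsb head the list, and Atg7 is lowest with 10 and 8 reads.

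Among the proteases, cathepsin D (Ctsd, the main aspartic protease of the lysosome; chr7:142375911-142388038) had 1935 reads in replicate 2 and 1540 in replicate 1, or 1927 and 2236 CPM. It ranked 61 among all annotated genes by mean level and held 23.0% of the member reads in replicate 2 and 24.7% in replicate 1. Cathepsin B (Ctsb, a cysteine protease; chr14:63122462-63145923) had 1002 reads in replicate 2 and 860 in replicate 1. These 2 cathepsins stood far above the other 5 proteases. Ctsa, the carboxypeptidase that also protects beta-galactosidase and neuraminidase, had 151 and 135 reads in replicates 2 and 1. The cysteine cathepsin Ctsf had 136 reads in replicate 2 and 106 in replicate 1, and Ctsl had 108 and 95. Legumain (Lgmn, which cuts after asparagine and processes other cathepsins) had 83 reads in replicate 2 and 65 in replicate 1, and Ctsz had 35 and 22. Of the 7 proteases only Ctsz had a higher level in replicate 2, also when the libraries were scaled by TMM or DESeq2 size factors.

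Of the other lysosomal enzymes and cofactors, prosaposin (Psap, the precursor of the sphingolipid activator saposins) had 175 reads in replicate 2 and 121 in replicate 1. Gaa, which degrades lysosomal glycogen, had 197 and 103 reads. Hexa, the alpha subunit of hexosaminidase A, had 55 reads in replicate 2 and 63 in replicate 1, although replicate 2 is the deeper library. Glb1 (lysosomal beta-galactosidase) had 27 and 17 reads. Progranulin (Grn), a growth factor-like protein that lysosomes cut into granulins, had 76 and 52 reads, at levels of 75.7 CPM in replicate 2 and 75.5 CPM in replicate 1. The soluble cholesterol carrier Npc2 had 51 and 41 reads.

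The lysosomal membrane was led by Lamp1, the abundant glycoprotein that lines it (chr8:13159161-13175338), with 502 reads in replicate 2 and 453 in replicate 1. Lamp2 (chrX:38401357-38456454), which is also needed for fusion with autophagosomes, had 175 and 138 reads. Laptm4a, a membrane protein of late endosomes and lysosomes, had 177 reads in replicate 2 and 123 in replicate 1. The tetraspanin Cd63 had 99 and 71 reads. Scarb2, the receptor that carries glucocerebrosidase to the lysosome, had 48 and 35 reads, and the cholesterol exporter Npc1 had 16 in each library. Npc1 overlaps Rmc1, a gene on the other strand with 34 and 23 reads, over 323 bases.

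Of the ATG8 family, which covers the growing membrane and binds cargo receptors, Gabarapl1 (chr6:129533160-129542346) had the most reads, 1064 in replicate 2 and 535 in replicate 1. Map1lc3b, the gene of the LC3B protein used to follow autophagosomes, had 544 and 386 reads, and Map1lc3a had 456 and 266. Gabarap had 214 reads in replicate 2 and 120 in replicate 1, and Gabarapl2 had 123 and 78. That order held for all models only, and changed when the kind of read was taken into account. In replicate 2, 95.02% of the Gabarapl1 reads (95% Clopper-Pearson interval 93.5% to 96.2%) lay on a new model of 1 exon inside the last exon of Gabarapl1-201, and in replicate 1 this share was 94.4% (92.1% to 96.2%). The model is 1110 bases long in replicate 2 and 1142 in replicate 1, and that last exon has 1245 bases, of which 63 are coding. The model differs in length between the libraries, so the exact start of the reads is not known from it. Spliced Gabarapl1 reads numbered 53 in replicate 2 and 30 in replicate 1, or 48.2 ± 6.53 CPM (SD, n = 2), which put it below the other 4 family members: Map1lc3b with 542 ± 9.81 CPM of spliced reads, Map1lc3a with 389 ± 38.8, Gabarap with 185 ± 28.1 and Gabarapl2 with 116 ± 7.91.

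**Figure D2:**
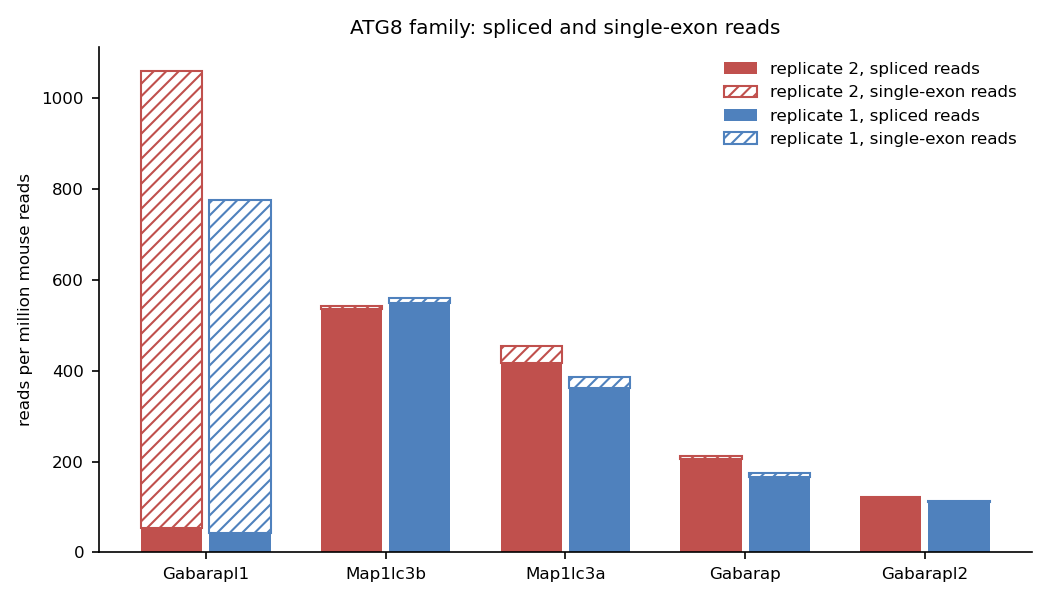
Level of the 5 ATG8 genes in CPM, replicate 2 (red) left of replicate 1 (blue), split into spliced reads (filled) and reads on new single-exon models (hatched). Nearly the whole Gabarapl1 bar is hatched, and the bars of the other members are nearly all filled.

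Reads confined to the last exon made up a median of 5.26% of the reads in replicate 2 and 4.55% in replicate 1 over the 31 members for which both libraries reached 20 reads. Over all 4087 annotated genes of that depth the medians were 3.45% and 2.93%. A share of 20% or more in both libraries was found in 4 of the 31 members (12.9%) and in 441 of all those genes (10.8%), so the members did not stand out by their number. The 4 were Gabarapl1, Ulk1 with 50% in replicate 2 and 34.8% in replicate 1, Laptm4a with 49.7% and 34.1%, and Psap with 30.9% and 23.1%. A share of 90% or more in both was found for 1 member, Gabarapl1, and for 15 of all those genes (0.367%).

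Map1lc3b has processed pseudogenes, and one of them bears on its count. Gm6055, a processed pseudogene 99.7% identical to Map1lc3b over 378 bases, was given 104 reads in replicate 2 and 0 in replicate 1. Map1lc3b with Gm6055 added stood at 645 CPM in replicate 2 against 560 CPM in replicate 1, a ratio of 1.15 (95% interval 1.01 to 1.31), against 0.967 (0.847 to 1.10) for Map1lc3b alone. The direction of Map1lc3b between the libraries therefore depended on where those reads were counted, and in neither case did it pass the test (adjusted p 0.323 with the added reads and 0.956 without, binomial test, Benjamini-Hochberg over all genes). Of the other pseudogenes at least 90% identical to a member, only Gm3724, a copy of Gabarapl2, had reads, 0 in replicate 2 and 2 in replicate 1.

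Among the cargo receptors, Sqstm1, the gene of p62 (chr11:50199366-50210827), had 230 reads in replicate 2 and 198 in replicate 1, while Nbr1 had 29 and 26. Bag3, the co-chaperone that hands damaged filament proteins of muscle to autophagy, had 302 reads in replicate 2 and 244 in replicate 1, more than any receptor. Of the genes that start the autophagosome, Becn1 (Beclin 1) had 87 and 58 reads and Wipi1, which binds the lipid made by the Beclin 1 complex, had 65 and 51. Atg3, the enzyme that loads ATG8 proteins onto lipid, had 66 reads in replicate 2 and 56 in replicate 1 and led the conjugation enzymes. The remaining members of these groups had between 8 and 38 reads in a library: the kinase gene Ulk1 and its partners Atg13 and Atg101, the lipid binder Wipi2, the conjugation genes Atg5, Atg7 and Atg12, and Tfeb, the transcription factor of lysosomal genes with 28 and 24 reads. Of these, Atg7 with 10 and 8 reads has the widest counting intervals in the plot of levels by role.

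Between the libraries, 4 members passed the exact two-sided binomial test against the share of mouse reads, with p-values adjusted by Benjamini-Hochberg over all 8836 genes tested; 3.36% of those genes passed. Gabarapl1 was higher in replicate 2 (1060 CPM, against 777 CPM in replicate 1), with a ratio of 1.36 (95% interval 1.23 to 1.52) and an adjusted p of 3.48e-07; 1.36% of all genes passed as higher. Lower in replicate 2 were Ctsb with a ratio of 0.799 (0.729 to 0.877, adjusted p 0.000123), Lamp1 with 0.760 (0.668 to 0.865, adjusted p 0.00151) and Ctsd with 0.862 (0.806 to 0.922, adjusted p 0.000945); 2% of all genes passed as lower. The test sets the difference of these 2 libraries against counting error and not against the spread between animals, and it says nothing of a condition. Among genes with 1000 to 4000 reads 44.8% passed, and the 3 members of that depth did; among those with 500 to 1000 reads 17.9% passed, and 1 of 4 members did. Of the 31 members with fewer reads 0 passed. Over all 38 members 10 had an unadjusted p under 0.05, the 4 called included, against 1061 of all 8836 genes tested.

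The median log2 ratio of the members was -0.19, against -0.06 for all tested genes, and 12 members had a higher and 26 a lower level in replicate 2. With TMM scaling 16 members were higher and 22 lower, and with DESeq2 size factors 17 and 21, so this split moved with the scaling. Over all genes the calls divided into 120 higher and 177 lower, and with TMM scaling into 184 higher and 107 lower. The Ctsd difference did not pass with TMM scaling (adjusted p 0.159) or with DESeq2 size factors (0.235), and Gabarapl1 did not pass over its spliced reads (log2 ratio 0.27, adjusted p 0.878). Cell type markers differed in both directions by the same binomial test. Of the 8 cardiomyocyte genes, Pln and Tnnc1 were called higher in replicate 2 and Myh6 and Actc1 lower. Also called lower were Hba-a1 of the 5 erythroid genes, Col3a1 of the 7 fibroblast genes (124 reads in replicate 2 and 135 in replicate 1) and Cfd of the 4 adipocyte genes (7 and 29 reads). None of the macrophage, endothelial, mural or lymphocyte genes was called; within the fibroblast list Pdgfra (12 and 3 reads) and Tcf21 (21 and 7 reads) had more reads in replicate 2 and were not called. The part of these cells in the differences was not tested.

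**Figure D3:**
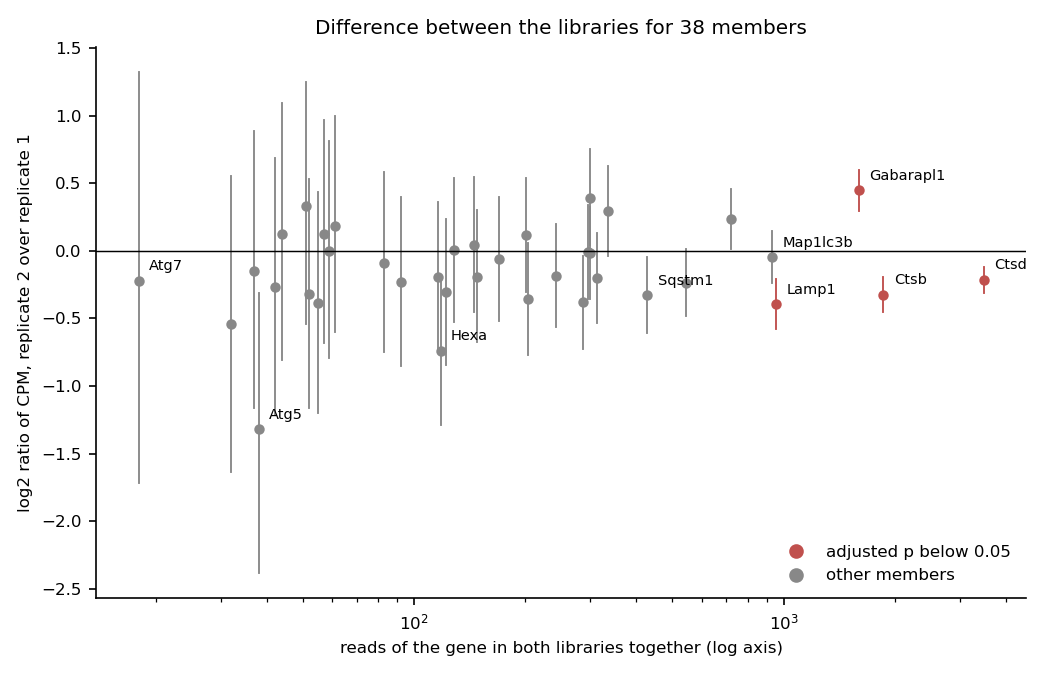
Log2 ratio of the level in replicate 2 over replicate 1 for the 38 members against the reads of both libraries together (log axis), with 95% intervals from counting error; red points have an adjusted p below 0.05. The 4 called members lie at the deep end, the intervals widen toward the shallow end, and Atg5 and Hexa did not pass.

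By class of model, 75.1 ± 3.39% of the member reads lay on known transcripts, 10.03 ± 0.428% on incomplete versions of them, 2.34 ± 0.0328% on new spliced models and 12.6 ± 3.00% on genomic models, the TALON class for possible genomic or unspliced sequence (SD, n = 2). All annotated genes had 73.6 ± 1.71% known, 13.8 ± 1.62% incomplete, 6.58 ± 0.302% new spliced and 6.10 ± 0.399% genomic. The genomic share of the members was mainly that of Gabarapl1: without it, 83.4% of the member reads were on known transcripts. The proteases had 87.2 ± 0.964% known reads and the ATG8 family 57.2 ± 3.82%. New spliced chains numbered 185 over all members, of which 138 had 1 read in all and 35 were found in both libraries.

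The last exon of Lamp2 was the clearest isoform choice with known proteins behind it, and the 3 exons are those shown above. LAMP-2B is known as the main form in muscle, LAMP-2A as the receptor of chaperone-mediated autophagy, and LAMP-2C has been described for the uptake of nucleic acids. The LAMP-2B exon ended 124 of 175 reads in replicate 2 (70.9%, Clopper-Pearson 95% interval 63.5% to 77.5%) and 94 of 138 reads in replicate 1 (68.1%, 59.6% to 75.8%). The LAMP-2A exon ended 36 reads (20.6%) in replicate 2 and 29 (21.01%) in replicate 1, and the LAMP-2C exon ended 15 reads in each, 8.57% and 10.9% of the reads of replicates 2 and 1. All Lamp2 reads could be given to 1 of the 3 exons. The order of the exons was the same in both libraries, and their shares differed by less than counting error (Fisher's exact test, two-sided, p 0.622 for LAMP-2B, 1 for LAMP-2A and 0.563 for LAMP-2C).

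**Figure D4:**
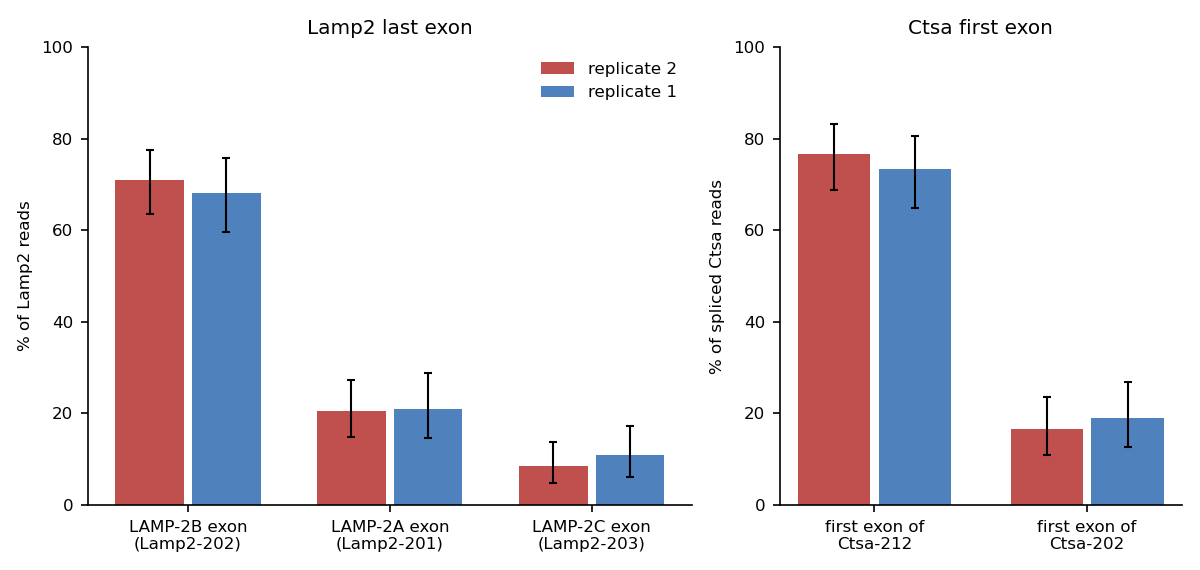
Left, share of the Lamp2 reads that end in each of the 3 last exons. Right, share of the spliced Ctsa reads on models whose first exon ends where either of 2 annotated first exons ends. Replicate 2 (red) stands left of replicate 1 (blue), and bars are 95% Clopper-Pearson intervals; the LAMP-2B exon holds 70.9% and 68.1%.

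Most Ctsa reads lay on a model whose first exon is not that of Ctsa-202, the known transcript with the most reads. A chain of 15 exons held 108 of 151 reads in replicate 2 and 94 of 135 in replicate 1, and was classed as an incomplete model. Its first exon (chr2:164833807-164833850) is that of the annotated fragment Ctsa-212, its next 13 exons are those of Ctsa-202, and its last exon starts as in Ctsa-202 but ends 501 bases earlier. The model has the same ends to the base in both libraries and is classed as incomplete, so the exact ends of the reads are not known from it. Neither Ctsa-202, which has another first exon, nor Ctsa-212, which has 2 exons, holds the whole chain. The annotated transcript of which it is an incomplete version is not named here, and its first exon may be an inner exon there. Whether the reads truly begin in its first exon was not tested. The start codon of Ctsa-202 lies in the shared exon that follows, so the coding sequence is the same. Spliced Ctsa reads were also divided by the base at which the first exon of their model ends, whatever its start. The end of the chain's first exon was shared by 76.6% in replicate 2 (Clopper-Pearson 95% interval 68.8% to 83.2%) and 73.3% in replicate 1 (64.8% to 80.6%). Models whose first exon ends where that of Ctsa-202 ends held 16.6% and 19.1%. RefSeq places a Ctsa start at chr2:164833773, 34 bases before the exon.

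That start is 1 of 3 in the list with the CLEAR core, TCACGTGA, which TFEB and its relatives bind. RefSeq promoters (GRCm38.p6, 250 bases before to 50 after a start) were at hand for 33 members, with 39 promoters, and not for Ctsb, Becn1, Atg12, Npc1 and Map1lc3a. The E-box CACGTG, which reads the same on both strands and lies inside the CLEAR core, was in 11 of the 39 (28.2%), against 7.15% of all promoters of that length and 7.84% of those of protein-coding genes. The CLEAR core was in 3 (7.69%), against 0.974% of all promoters and 1.23% of those of protein-coding genes. The windows around it follow, with the core in capitals; it begins 72 bases before the start of Atg3, 13 before that of Ctsa and 99 before that of Ctsd.
Atg3 (chr16:45158741-45158780, plus strand): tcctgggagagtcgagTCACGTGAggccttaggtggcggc
Ctsa (chr2:164833744-164833783, plus strand): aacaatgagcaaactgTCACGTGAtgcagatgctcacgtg
Ctsd (chr7:142387903-142387942, minus strand): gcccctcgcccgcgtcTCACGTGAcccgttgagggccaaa
The other members with the E-box were Atg5, Atg7, Ctsf, Ctsl, Gaa, Glb1, Lamp1 and Lgmn. The 11 had a median level of 123 CPM, between 10.8 CPM (Atg7) and 2081 CPM (Ctsd), and the 22 others with a promoter 74.4 CPM; these ranges overlap widely, and a match is not a bound site.

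Besides Lamp2, 5 members had a second spliced chain with at least 10% of the reads on known or new spliced models in each library. Map1lc3a-201, the coding form, held 72.4% of those reads in replicate 2 and 73.6% in replicate 1. Map1lc3a-203, which is annotated without a coding sequence, held 27.6% and 26.4%. Its first exon contains an inner exon of Map1lc3a-201 and ends at the same base. The splice sites after that base are the same, so a Map1lc3a-201 read cut short within the inner exon would show the same chain. Whether the reads on Map1lc3a-203 truly begin in its own first exon was not tested. For Sqstm1, Sqstm1-202 held 70.8% and 72.6% and Sqstm1-201 21.4% and 25% in replicates 2 and 1. Sqstm1-201 lacks 114 coding bases, or 38 codons, at the end of an exon (that exon is chr11:50202513-50202594 in Sqstm1-201 and chr11:50202399-50202594 in Sqstm1-202, minus strand).

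For Gaa, Gaa-203 held 82.1% in replicate 2 and 84.1% in replicate 1 and Gaa-201 held 15.4% and 12.5%, and they differ before the start codon only, with the same coding sequence. For Atg13, a new model of 18 exons held 6 of the 18 reads on known or new spliced models in replicate 2 and 6 of 16 in replicate 1, and Atg13-201 held 2 and 3. The new model is Atg13-201 with an exon of 99 bases added (chr2:91682803-91682901), an exon annotated in Atg13-206. With so few reads the order of these 2 Atg13 forms is not settled.

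Psap varied by a few bases at the boundary of 2 coding exons (chr10:60295983-60299117 with the intron; spliced sequence of 20 bases on each side, with the inserted bases in capitals). The stretches are shown because the coding sequences of Psap-201 and Psap-202 differ there.
Psap-201: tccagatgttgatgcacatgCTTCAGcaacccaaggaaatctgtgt
Psap-202: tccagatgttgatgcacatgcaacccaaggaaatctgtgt
Psap-204: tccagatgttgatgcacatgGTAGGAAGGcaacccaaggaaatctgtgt
Psap-205: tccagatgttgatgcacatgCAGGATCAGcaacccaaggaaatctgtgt
Psap-201, with 6 bases or 2 codons inserted, held 51.6% of the reads on known or new spliced models in replicate 2 (48 of 93) and 54.1% in replicate 1 (40 of 74). Psap-202, without an insert, held 26.9% and 24.3%. A new model that ends the upstream exon 4 bases later than Psap-202, not a whole number of codons, held 17.2% and 16.2%, the only new spliced model beside that of Atg13 with at least 5% of a member's reads in each library. Psap-204 and Psap-205, with 9 bases each, were given 0 reads in both. How exactly reads were placed on such short inserts was not tested.

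**Figure D5:**
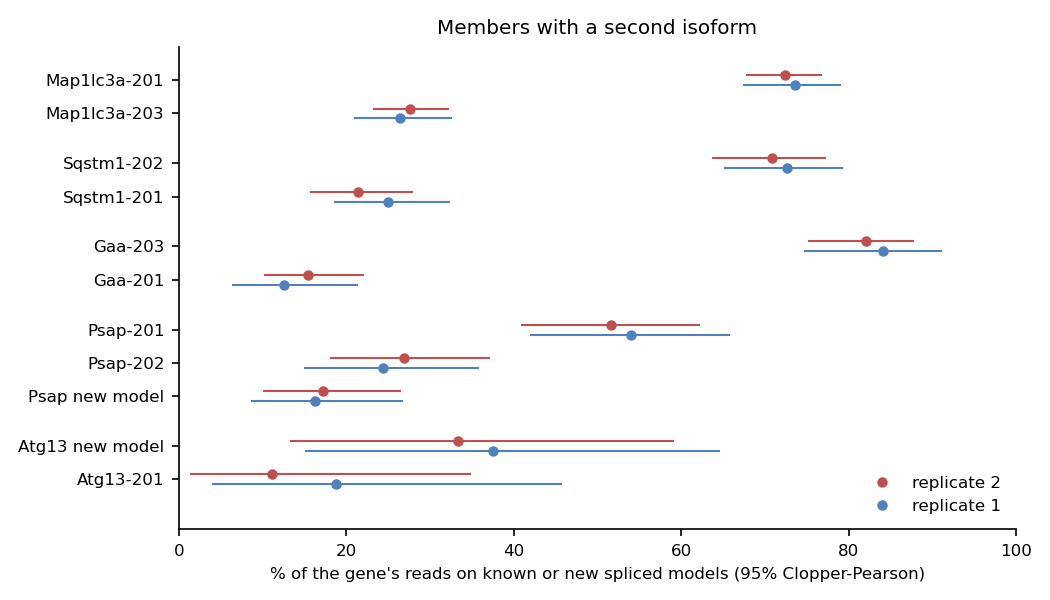
Share of a gene's reads on known or new spliced models held by each isoform named in the text, for Map1lc3a, Sqstm1, Gaa, Psap and Atg13; replicate 2 in red above replicate 1 in blue, with 95% Clopper-Pearson intervals. The points of the libraries lie furthest apart for Atg13-201, with 11.1% in replicate 2 and 18.8% in replicate 1. The points of the Atg13 isoforms have the widest intervals.

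Bag3 reads lay mainly on a known transcript and on an incomplete model of its 3′ part. Bag3-201, with 4 exons, held 147 reads in replicate 2 and 130 in replicate 1, or 48.7% and 53.3% of the gene. An incomplete model of its last 2 exons held 126 and 83 reads, or 41.7% and 34.02%. Further incomplete models of 3 exons (9 and 8 reads) and of 1 exon (16 and 20 reads) were found. Whether any of these models stands for a separate transcript was not tested. The share of the most used transcript or model class was tested between the libraries (Fisher's exact test, two-sided). P-values were adjusted by Benjamini-Hochberg over 3938 genes for which both libraries reached 20 reads and which had several models to compare. Of those genes 2.01% passed. Of 31 members tested 0 passed, 3 had an unadjusted p under 0.05, and the lowest adjusted p was 0.280 for Scarb2. The number of all genes with an unadjusted p under 0.05 is not given here. Many members had few reads, so a change of share can be missed. For Gabarapl1 and Ulk1 the most used was the genomic class and not a transcript. For Scarb2-201 the share was 70.8% in replicate 2 (34 of 48 reads) and 94.3% in replicate 1 (33 of 35).

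A list of 98 other symbols of the same pathway was read by role, of which 96 had reads and 84 could be tested. The symbols without reads were Gla and Limp2, and Limp2 is another name of the member Scarb2, so it is not a further gene. None was called higher in replicate 2, where 1.36% of all genes tested were, and 2 were called lower, where 2% of all were (binomial test, adjusted over all genes), so the count is near the background. Both encode subunits of the V1 part of the proton pump that acidifies the lysosome: Atp6v1b2 had 106 reads in replicate 2 and 118 in replicate 1 (adjusted p 0.0125), and Atp6v1c1 had 89 and 102 (adjusted p 0.0187). With DESeq2 size factors 0 of the 84 passed and 10 had an unadjusted p under 0.05, as had 1019 of all 8836 genes tested. The proton pump was the best covered of these groups, with 1627 ± 74.9 CPM over 15 genes, led by Atp6v0c with 258 ± 25.3 CPM, Atp6v1g1 with 235 ± 9.98 and Atp6v0b with 146 ± 5.75. Nutrient sensing genes on the lysosome summed to 900 ± 3.72 CPM (13 genes), led by Lamtor1, Rragc and Lamtor3, and further hydrolases to 852 ± 47.2 CPM (27 genes), led by Smpd1 (acid sphingomyelinase) with 264 ± 26.9 CPM. Fusion genes summed to 556 ± 45.3 CPM and were led by Rab7, Vamp8 and Vps41. Further cargo receptors summed to 400 ± 11.7 CPM (Optn, Tax1bp1 and Calcoco1), conjugation genes to 344 ± 4.46 CPM (led by Atg4d, Atg10 and Atg16l1), initiation genes to 271 ± 7.24 CPM (led by Atg9a, Wdr45b and Uvrag) and membrane proteins to 209 ± 20.0 CPM (led by Laptm4b and Tmem192).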

How the data were processed

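Long-read RNA sequencing of heart was measured in 2 libraries of 1 group, so no conditions were compared. The authors deposited read counts per transcript model and the models' exons, on mm10 with GENCODE M21; TALON is named in the annotation, per the file headers, and the aligner is not given in the sources used here. Depth was 1019974 reads in replicate 2 and 699529 in replicate 1; spike-ins were left out of the totals. Counts were summed per gene. Genes whose reads in the libraries summed to 10 or more were tested by setting the reads of replicate 2 against its part of all mouse reads (binomial test, exact and two-sided; Benjamini-Hochberg over all such genes, threshold 0.05). The share of the most used isoform or model class was tested with Fisher's exact test where both libraries reached 20 reads and the gene had several models to compare. Log2 ratios used a pseudocount of 1 CPM. Shares have 95% Clopper-Pearson intervals, and a count of 0 was taken to allow 3 counts; intervals cover counting error only. Alternatives were TMM scaling (edgeR 4.0.16), DESeq2 1.42.0 size factors, other read minimums, other model classes, replicate 2 thinned to the depth of replicate 1, and either library left out. Scripts ran in Python 3.11.15 with scipy 1.17.1 and R 4.3.3, copies were found with blastn 2.17.0, and the tests were tested on simulated data. Reads are given for members whose reads summed to 100 or more or that were called, isoforms where a second spliced chain held at least 10% in each library, and up to the 3 highest other genes of each role (some are not reported here); some further members and isoforms (Bag3, Ctsa, Scarb2) were named after their values were seen. The members and lists were chosen with earlier results of these data known.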

Additional observations from a re-analysis of the deposited data

Results flagged for a closer look

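New models on the strand opposite Scarb2 held 6 reads in replicate 2 and 5 reads in replicate 1, beside 48 and 35 reads of Scarb2 itself. They stood out because they lie outside the reads counted for the gene and are above the 3 counts that a count of 0 allows in each library. All of these reads were on models of 1 exon. Over 17 members, such opposite-strand models held 39 reads in replicate 2 and 14 in replicate 1, with 8 and 3 of them opposite Atg3. The share of all genes with such models is not given here, so whether the members stand out is not known.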

How the results depend on the processing

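The share of member reads on known transcripts, 75.1%, was 85.8% without genomic models, 85.6% as the median over members and 83.4% without Gabarapl1. The median member level, 87.0 CPM, was 64.2 CPM over known transcripts and 78.7 CPM without genomic or without new single-exon models. The summed level, 8720 CPM, was 6555, 7632 and 7432 CPM under those 3 settings. Leaving out a library gave 72.7% to 77.5% for the known share, 84.7 to 92.9 CPM for the median, 8396 to 9044 CPM for the sum and 68.1% to 70.9% for the LAMP-2B exon. The other pathway genes called, 2, became 1 with TMM scaling, 0 with DESeq2 size factors, 1 over known transcripts and 4 without genomic models. Members called stayed between 3 and 4, all genes called between 254 and 351, and members that passed the test of the top isoform share at 0. Gabarapl1 did not pass over known transcripts (adjusted p 0.876), without genomic models (0.869) or without new single-exon models (0.878). The log2 ratio of Map1lc3b, -0.05, was 0.20 with Gm6055 reads added. The settings on single-exon models, Gabarapl1 and Gm6055 were chosen after seeing the data. The cause of these changes was not tested, beyond fewer reads being counted. No paired analysis was possible because there is 1 group. Depth limits members below 100 reads most.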
